A study of Homo sapiens with 39 samples.

Results

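The nuclear-encoded subunits of oxidative phosphorylation were followed across 6 estrogen receptor ligands in HCC1428-LTED cells. The set holds 76 of the 46706 gene symbols in the deposited table. Its rule reads gene symbols only: the NDUFA, NDUFB, NDUFC, NDUFS and NDUFV series and NDUFAB1 of complex I (38 genes), SDHA to SDHD of complex II (4 genes), 8 UQCR genes of complex III, 10 COX genes of complex IV and 16 ATP5 genes of complex V. All 76 subunits were above 0 in each of the 39 libraries, and all 76 passed the requirement of a mean of at least 1 TPM that left 14404 symbols to test.

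HCC1428-LTED is a long-term estrogen-deprived derivative of HCC1428, an established line of estrogen receptor-positive human breast cancer cells. Cells received DMSO alone, which the labels call untreated, or 1 of 6 ligands at 30 or 300 nM (AZD9496, AZD-SAR, GDC-0810, GDC-SAR, SAR439859 or fulvestrant), and their RNA was sequenced after 24 h. The medium of all 13 groups was IMEM, and its 5% serum had been charcoal-stripped, so the DMSO cells also had no added estrogen. GDC-SAR carries the GDC-0810 scaffold and AZD-SAR the AZD9496 scaffold, each joined to the side chain of SAR439859. Each group had 3 libraries. The labels do not say that these came from separate cultures, so p-values measure only the spread between these libraries, and the data describe 1 cell line.

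Oxidative phosphorylation is carried out by protein complexes in the inner mitochondrial membrane. Complex I takes electrons from NADH and complex II takes them from succinate, both pass them through ubiquinone to complex III, and cytochrome c carries them on to complex IV, which reduces oxygen. Complexes I, III and IV pump protons, and complex V, the ATP synthase, uses the resulting gradient to make ATP. Mitochondrial DNA encodes a few of the proteins, and nuclear genes of the kind described here encode the rest.

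The libraries carried the markers of luminal breast epithelium. All 10 luminal markers passed the filter on low values, with means of 3669 TPM for GATA3, 1237 TPM for KRT8 and 397 TPM for ESR1, while 0 of 6 basal or mesenchymal markers passed and 1 of 8 stromal, endothelial or immune markers did (COL1A1, mean 11.7 TPM). Ligand action was visible in progesterone receptor and GREB1, 2 estrogen-induced genes. PGR lay between 29.2 and 47.0 TPM in DMSO and between 1.49 and 9.9998 TPM in the 36 treated libraries, and GREB1 fell from 17.9 to 20.7 TPM to between 0.64 and 8.86 TPM. The DMSO libraries also stood apart in abundant non-coding RNA: RN7SL1 was 106529 to 114634 TPM in DMSO and 2059 to 72766 TPM in the treated libraries. MALAT1 was listed at 0 in SAR439859 30 nM replicate 1 and AZD-SAR 300 nM replicate 2. SNORA76C took a large share of the fixed total and differed between ligands: it was 45647 to 62435 TPM in DMSO, 61785 to 94842 TPM with AZD9496 and 89931 to 187939 TPM with the other 5 ligands. Replicate numbers here follow the order of deposit and are no label of the study. In 12 of 12 treated groups the library listed first had the highest summed level of the subunits, and the fit has no term for that order. TPM is a share of a fixed total, and the part of these RNAs and of that order in the differences below was not tested. Whatever sets the 3 DMSO libraries apart as a set cannot be told apart from the absence of ligand.

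Upstream sequences are shown for 5 subunits whose levels set treated from DMSO libraries or 1 ligand from the others. Each is the 250 bases before the gene's start in RefSeq (GRCh38.p14), read 5′ to 3′ on the gene's strand. The ATP5L sequence lies at chr11:118401356-118401605 on the plus strand, NDUFA5 at chr7:123601652-123601901 on the minus strand, ATP5G1 at chr17:48892537-48892786 on the plus strand, UQCR11 at chr19:1605463-1605712 on the minus strand and NDUFS6 at chr5:1801157-1801406 on the plus strand. Capitals mark matches to 3 motifs that were searched on both strands. These were a 10-letter NRF1 motif, CCGGAAG for ETS factors such as GABP, and CACGTG, the E-box.
ATP5L: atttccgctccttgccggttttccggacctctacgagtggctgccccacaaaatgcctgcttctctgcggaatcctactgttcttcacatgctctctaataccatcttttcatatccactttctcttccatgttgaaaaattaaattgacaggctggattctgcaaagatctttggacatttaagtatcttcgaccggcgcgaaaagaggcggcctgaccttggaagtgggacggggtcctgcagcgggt
NDUFA5: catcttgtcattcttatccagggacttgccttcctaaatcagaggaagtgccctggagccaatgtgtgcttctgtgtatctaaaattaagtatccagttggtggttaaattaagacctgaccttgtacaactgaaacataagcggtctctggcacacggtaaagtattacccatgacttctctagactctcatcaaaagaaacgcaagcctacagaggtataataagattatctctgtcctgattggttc
ATP5G1: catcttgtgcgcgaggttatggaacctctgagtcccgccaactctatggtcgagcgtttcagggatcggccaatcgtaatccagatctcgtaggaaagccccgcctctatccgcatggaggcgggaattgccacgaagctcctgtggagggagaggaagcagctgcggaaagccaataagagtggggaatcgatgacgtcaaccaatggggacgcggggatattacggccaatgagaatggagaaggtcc
UQCR11: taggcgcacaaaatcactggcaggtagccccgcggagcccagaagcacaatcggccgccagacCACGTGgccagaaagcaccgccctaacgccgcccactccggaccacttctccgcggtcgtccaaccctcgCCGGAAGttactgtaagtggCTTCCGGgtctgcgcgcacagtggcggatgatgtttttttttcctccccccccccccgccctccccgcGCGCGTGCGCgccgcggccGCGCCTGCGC
NDUFS6: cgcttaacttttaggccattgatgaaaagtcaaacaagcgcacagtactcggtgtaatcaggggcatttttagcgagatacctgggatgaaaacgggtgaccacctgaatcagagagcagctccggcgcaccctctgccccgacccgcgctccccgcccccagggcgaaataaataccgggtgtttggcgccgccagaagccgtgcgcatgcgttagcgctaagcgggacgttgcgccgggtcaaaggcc

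Of these 5 sequences, UQCR11 alone held matches in the printed bases, with 2 to NRF1, 2 to ETS and 1 E-box. In the table of windows that run from 250 bases before to 50 bases after the start, 63 of the 76 subunits had an entry. In these longer windows ATP5L held 1 ETS match and ATP5G1 held 1 E-box, both outside the printed bases. The NRF1 letters were in 15 of those 63 windows (23.81%), against 6.29% of all 27305 windows and 12.29% of the 9639 windows of tested genes. The ETS letters were in 19 windows (30.16%), against 19.86% of the windows of tested genes. YY1 letters, AAGATGGCG, were in 8 (12.7%, against 4.18%) and the E-box in 7 (11.11%, against 10.43%). The full 13-letter palindrome of the estrogen response element was in 0 of 63 subunit windows and in 18 of all 27305. A match describes letters in a window and not binding of a factor.

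The subunits were abundant. Their median level over the 39 libraries was 234 TPM, with a range from 13.5 TPM for NDUFA9 to 1530 TPM for ATP5J2, against a median of 9.94 TPM for all tested genes. TPM is scaled per transcript length, so these levels can be compared between genes only as far as the lengths used, which are not given, are right. The most abundant subunit of complex I was NDUFS8 (562 TPM), that of complex II was SDHC (141 TPM), that of complex III was UQCRB (1468 TPM), that of complex IV was COX6B1 (1121 TPM) and that of complex V was ATP5J2. Replicate libraries differed for the subunits by a median SD of 0.24 on the log2(TPM + 1) scale, against 0.29 for all tested genes. The summed level of all 76 subunits was 23009 ± 439 TPM in DMSO (SD, n = 3). Group means with ligand ran from 22858 ± 455 TPM (SAR439859 300 nM) to 25416 ± 1780 TPM (GDC-0810 30 nM). The 3 GDC-0810 30 nM libraries, at 23847 to 27350 TPM, lay above the DMSO libraries, at 22502 to 23277 TPM. So did the 3 AZD9496 30 nM libraries, at 23424 to 27880 TPM, while those of SAR439859 300 nM overlapped the DMSO libraries.

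Which subunits differed from DMSO was asked of each ligand and dose separately. A call is an adjusted p under 0.05 from limma, with Benjamini-Hochberg adjustment over all 14404 genes. Fulvestrant, the standard-of-care degrader, gave 17 called subunits at 30 nM (22.4%, against 19.1% of all tested genes), 9 lower (against 7.82%) and 8 higher (against 11.3%). At 300 nM it gave 13 (17.1%, against 19.2%), 6 lower (against 8.12%) and 7 higher (against 11.1%). SAR439859 gave 19 at 30 nM (25%, against 25.5%), 10 lower (against 10.2%) and 9 higher (against 15.3%), and 24 at 300 nM (31.6%, against 24.1%), 14 lower (against 12.8%) and 10 higher (against 11.2%). For fulvestrant at both doses and SAR439859 at 30 nM the share of subunits was near that background.

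GDC-0810 gave 32 called subunits at 30 nM (42.1%, against 16.8%), 12 lower (against 8.83%) and 20 higher (against 7.95%). At 300 nM it gave 29 (38.2%, against 16%), 13 lower (against 9.04%) and 16 higher (against 6.99%). AZD9496 gave 13 at 30 nM (17.1%, against 11.3%), 4 lower (against 2.05%) and 9 higher (against 9.21%), and 6 at 300 nM (7.89%, against 5.93%), 3 lower (against 2.21%) and 3 higher (against 3.71%). GDC-SAR gave 25 at 30 nM (32.9%, against 22.5%), 12 lower (against 11.1%) and 13 higher (against 11.4%), and 22 at 300 nM (28.9%, against 20.3%), 12 lower (against 10.5%) and 10 higher (against 9.76%). AZD-SAR gave 21 at 30 nM (27.6%, against 20.6%), 10 lower (against 8.66%) and 11 higher (against 11.9%), and 36 at 300 nM (47.4%, against 25.6%), 16 lower (against 12.8%) and 20 higher (against 12.7%). With all 39 libraries, the subunit share was over 2 times the background for GDC-0810 at both doses and for no other group. All 12 comparisons share the same 3 DMSO libraries, so they are not independent of one another.

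**Figure D1:**
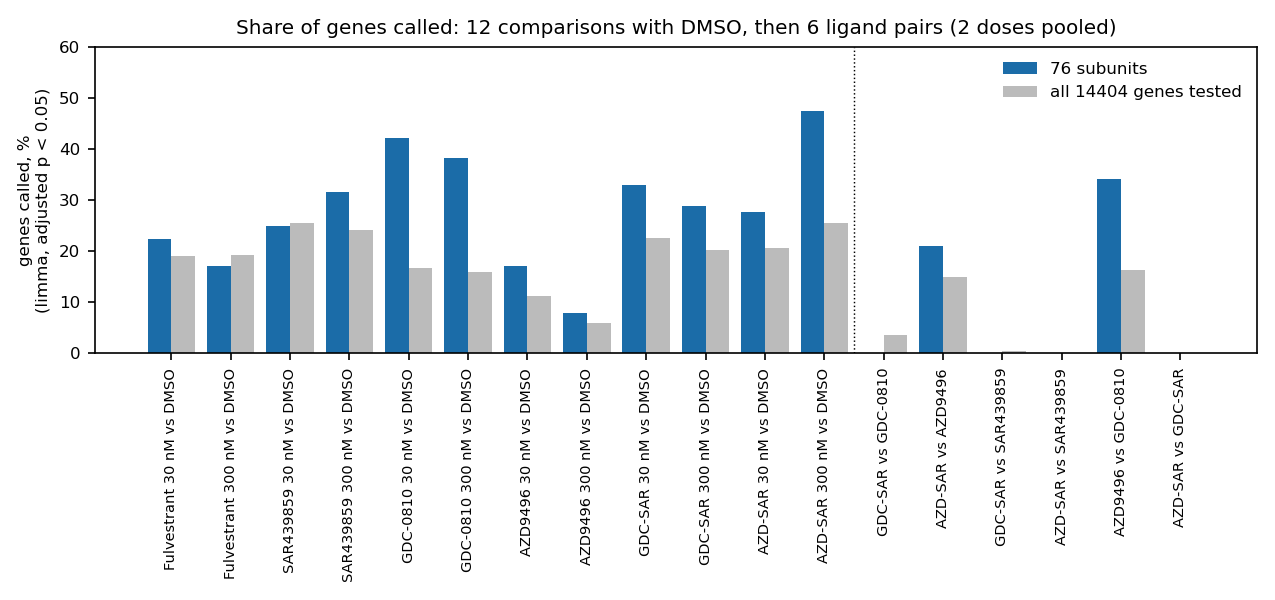
Percent of the 76 subunits (blue) and of all 14404 tested genes (grey) called by limma at an adjusted p under 0.05, for 12 comparisons with DMSO and, right of the dotted line, 6 pairs of ligands with both doses pooled. The subunit share stands farthest above the grey bar for GDC-0810 at 30 nM, 42.1% against 16.8%, and is 0 in 4 of the 6 pairs.

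Single libraries moved several of these counts by more than 1.5 times. Here and below, counts with a library left out are given without the share of all tested genes at that setting. They therefore do not show whether the subunits lost calls more than other genes did. Without DMSO replicate 2 the count was 11 for fulvestrant 30 nM, 8 for fulvestrant 300 nM, 13 for SAR439859 300 nM, 18 and 14 for GDC-0810 at 30 and 300 nM, 6 and 2 for AZD9496 at 30 and 300 nM, 13 for GDC-SAR 30 nM and 21 for AZD-SAR 300 nM. Without DMSO replicate 3 it was 11 for fulvestrant 30 nM, 18 for GDC-0810 300 nM, 7 and 3 for AZD9496, 16 for GDC-SAR 30 nM and 23 for AZD-SAR 300 nM. Leaving out treated libraries gave 11 for fulvestrant 30 nM without its replicate 1 or 2, and 13 for GDC-0810 30 nM without its replicate 1. The GDC-0810 300 nM count was 13 without its replicate 1 and 16 without its replicate 2. AZD9496 gave 5 at 30 nM and 2 at 300 nM without replicate 1 of that group. Removing replicate 3 of GDC-SAR 30 nM gave 15, and removing replicate 2 of GDC-SAR 300 nM gave 11. For AZD-SAR 300 nM the count was 22 with replicate 1 removed and 19 with replicate 2 removed.

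Over the 12 comparisons 52 of the 76 subunits were called at least once (68.4%, against 45.8% of all tested genes). None was called lower with 1 ligand and higher with another. In 12 of 12 comparisons NDUFA5 and ATP5L were lower (2.63% of subunits, against 1.24% of tested genes), and UQCR11, ATP5B and ATP5G1 were higher (3.95%, against 1.69%). A further 3 subunits were lower in at least 10 comparisons (ATP5D, NDUFS6 and NDUFB5), and a further 3 were higher in at least 10 (NDUFB8, SDHC and UQCR10). The heat map of differences from DMSO shows that each complex held subunits of both directions. The median subunit difference from DMSO ran from 0.03 (AZD-SAR 300 nM) to 0.20 (AZD9496 30 nM) on the log2 scale, beside a median of all tested genes of 0.03 and 0.18 in the same 2 comparisons. By complex, the medians ran from 0.33 to 0.65 for complex III and from -0.17 to -0.06 for complex V.

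**Figure D2:**
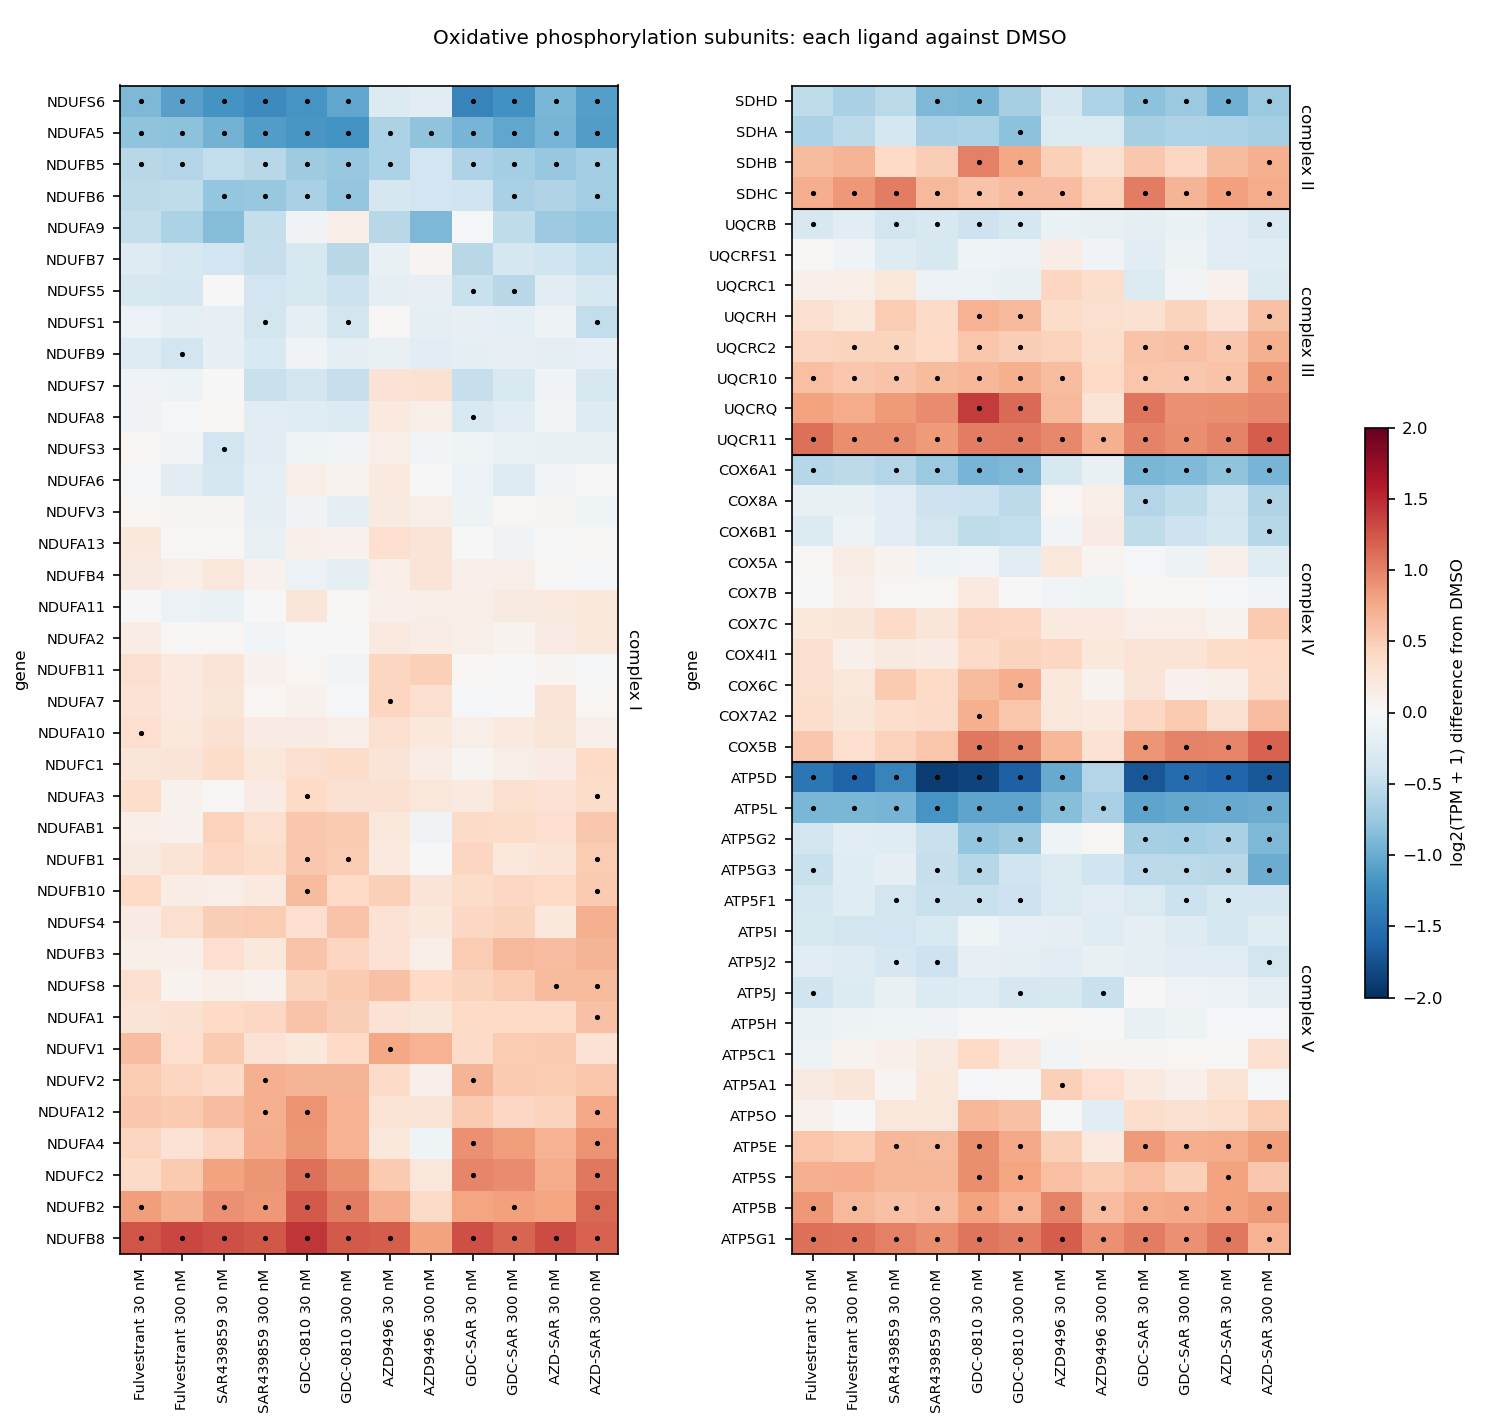
Difference of 75 of the 76 subunits from DMSO on the log2(TPM + 1) scale (colour, red higher and blue lower) for 12 ligand and dose groups, with complex I on the left and complexes II to V on the right. Dots mark calls at an adjusted p under 0.05 (limma); rows such as NDUFA5 and ATP5L are blue and rows such as UQCR11, ATP5B and ATP5G1 are red throughout.

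In complex I, 14 of the 38 subunits were called in no comparison with DMSO, beside 45.8% of all tested genes called in at least 1. Accessory subunits were called in both directions, and so were core subunits. NDUFA5, an accessory subunit of the arm that projects into the matrix (chr7:123536997-123601651), measured 159.4, 167.4 and 171.3 TPM in DMSO. Its 36 treated libraries ran from 59.4 to 114.0 TPM with a median of 86.7 TPM. Each treated library lay below each DMSO library, and the group differences ran from -1.20 (GDC-0810 300 nM, adjusted p = 1.28e-05) to -0.64 (AZD9496 30 nM, adjusted p = 0.0111), with an SE of 0.17. The AZD9496 30 nM call was lost without replicate 1 of that group (adjusted p = 0.0563).

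NDUFS6, another accessory subunit of that arm (chr5:1801407-1816048), measured 592.7, 544.5 and 510.6 TPM in DMSO. With AZD9496 it measured 447.9, 432.4 and 475.0 TPM at 30 nM and 451.1, 470.3 and 482.7 TPM at 300 nM. The 30 libraries of the other 5 ligands ran from 176.2 to 374.4 TPM. The 3 sets of libraries did not overlap: DMSO was highest, AZD9496 lay between and the other ligands were lowest. NDUFS6 fell in the 10 groups without AZD9496, by up to 1.33 on the log2 scale (GDC-SAR 30 nM, SE 0.22, adjusted p = 5.18e-05). With AZD9496 the differences were -0.28 and -0.23 (adjusted p = 0.461 and 0.636).

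NDUFB8, an accessory subunit of the membrane arm (chr10:100523729-100529923), went the other way. It measured 196.1, 113.0 and 128.4 TPM in DMSO and 188.7 to 445.4 TPM in the treated libraries, with a median of 340.7 TPM, so the ranges overlapped slightly. It rose in 11 of 12 comparisons, by 1.17 to 1.43 (SE 0.26), and the difference of 0.80 with AZD9496 300 nM had an adjusted p of 0.0573. NDUFB2, another membrane-arm subunit, rose in 7 of 12 (all 12 differences between 0.38 and 1.23). Its SAR439859 300 nM call was lost without replicate 1 (adjusted p = 0.148) or 2 (0.07) of that group, DMSO replicate 2 (0.1) or DMSO replicate 3 (0.0667), and its GDC-0810 30 nM call without replicate 1 of that group (0.0566). Of the same arm, NDUFB5 and NDUFB6, fell in 10 and 6 comparisons, with differences from -0.76 to -0.39 and from -0.80 to -0.33.

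The core subunits carry the electron path of complex I. NDUFS1, which holds iron-sulfur clusters, fell in 3 comparisons (SAR439859, GDC-0810 and AZD-SAR, each at 300 nM). NDUFS3 fell in 1, and NDUFS8, NDUFV1 and NDUFV2 rose in 2, 1 and 2. NDUFS7 was called in 0 comparisons with DMSO (48.2 to 55.3 TPM there), although it differed between ligands as described below. NDUFC2, which rose in 3 comparisons, shares sequence with the readthrough symbol NDUFC2-KCTD14, listed at a mean of 276.8 TPM against 29.2 TPM for NDUFC2 itself, so its values are uncertain.

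In complex II, which also serves the tricarboxylic acid cycle, the membrane anchors moved apart. SDHC measured 100.2, 70.0 and 89.9 TPM in DMSO and 95.97 to 207.0 TPM in the treated libraries, with a median of 144.2 TPM. It rose in 11 of 12 comparisons, by 0.58 to 1.03 (SE 0.17), and the difference with AZD9496 300 nM was 0.46 (adjusted p = 0.102). SDHD, its partner in the membrane, measured 19.95, 29.7 and 21.7 TPM in DMSO and 8.98 to 25.7 TPM with ligand, and it fell in 6 of 12 with all 12 differences between -0.96 and -0.34 (SE 0.24). The iron-sulfur subunit SDHB rose in 3 comparisons (both GDC-0810 groups and AZD-SAR 300 nM). The flavoprotein SDHA fell in 1, and its reads may be divided with the copy SDHAP1, listed at a mean of 13.4 TPM against 54.5 TPM.

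Complex III had the highest median of the 5 complexes. Of its 8 subunits in the set, 6 were called at least once, beside 45.8% of all tested genes. UQCR11, a small subunit (chr19:1597169-1605462), measured 344.9, 239.4 and 268.6 TPM in DMSO. With ligand its 36 libraries ran from 385.1 to 816.9 TPM with a median of 554.2 TPM, all above DMSO. It rose in 12 of 12 comparisons, from 0.71 (AZD9496 300 nM, adjusted p = 0.0185) to 1.22 (AZD-SAR 300 nM, adjusted p = 1.29e-05), with an SE of 0.19. The AZD9496 300 nM call was lost without replicate 1 of that group (adjusted p = 0.168), DMSO replicate 2 (0.125) or DMSO replicate 3 (0.0716).

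UQCR10, another small subunit, measured 99.8, 107.8 and 113.3 TPM in DMSO and 127.4 to 238.0 TPM with ligand, again without overlap. It rose in 11 of 12 comparisons, and the exception was AZD9496 300 nM (0.40, adjusted p = 0.241). UQCRC2, a core protein, rose in 8 of 12 comparisons (0.35 to 0.71 over all 12), while its partner UQCRC1 was called in 0. UQCRQ and UQCRH rose in 3 each. Leaving out 1 of the 6 libraries compared ended the UQCRQ call in 5 of 6 cases for GDC-0810 300 nM (adjusted p up to 0.156), in 4 of 6 for GDC-SAR 30 nM (up to 0.129) and in 1 of 6 for GDC-0810 30 nM (0.0733, without its replicate 1). UQCRFS1, the Rieske iron-sulfur protein, was called in 0. UQCRB, the most abundant subunit of the complex, fell in 6 of 12, but by no more than 0.41. It measured 1549.8, 1807.9 and 1833.5 TPM in DMSO and 1210 to 1696 TPM with ligand.

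In complex IV, 4 of the 10 subunits were called in no comparison: COX4I1, COX5A, COX7B and COX7C. Of all tested genes, 45.8% were called in at least 1. COX6A1, the isoform found outside heart and skeletal muscle, measured 266.1, 366.8 and 369.0 TPM in DMSO and 135.0 to 332.9 TPM with ligand, with a median of 204.2 TPM. It fell in 9 of 12 comparisons, by up to 0.94 (SE 0.19), and the other 3 were fulvestrant 300 nM (-0.52, adjusted p = 0.0532) and AZD9496 at 30 and 300 nM (-0.32 and -0.16, adjusted p = 0.307 and 0.727). The processed copy COX6A1P2 was listed at a mean of 31.9 TPM against 219 TPM, so some COX6A1 reads may be counted there. COX5B, a zinc-binding subunit, rose in 6 of 12: both doses of GDC-0810, GDC-SAR and AZD-SAR. Its differences in all 12 ran from 0.29 to 1.17 (SE 0.31). The GDC-SAR 300 nM call was lost without replicate 1 (adjusted p = 0.107) or 2 (0.0735) of that group, DMSO replicate 2 (0.0729) or DMSO replicate 3 (0.0747). COX8A fell in 2 comparisons and COX6B1 in 1, while COX6C and COX7A2 rose in 1 each.

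Complex V held some of the largest differences, and they ran in both directions within the same functional parts. ATP5L, subunit g of the membrane domain (chr11:118401606-118409847), measured 714.1, 920.1 and 820.7 TPM in DMSO. With ligand its 36 libraries ran from 315.8 to 578.0 TPM with a median of 402.7 TPM, all below DMSO. It fell in 12 of 12 comparisons, by 0.64 (AZD9496 300 nM, adjusted p = 0.0296) to 1.18 (SAR439859 300 nM, adjusted p = 1.27e-05), with an SE of 0.18. The AZD9496 300 nM call was lost without replicate 1 (adjusted p = 0.159) or 3 (0.0545) of that group, DMSO replicate 2 (0.153) or DMSO replicate 3 (0.0838).

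ATP5B, the catalytic beta subunit (chr12:56638175-56645984), measured 418.2, 303.6 and 343.2 TPM in DMSO and 428.8 to 864.0 TPM with ligand, with a median of 594.1 TPM and no overlap. It rose in 12 of 12 comparisons, by 0.59 to 0.997 (SE 0.17, adjusted p from 0.000198 to 0.0242). The AZD9496 300 nM call was lost without replicate 1 of that group (adjusted p = 0.225), DMSO replicate 2 (0.153) or DMSO replicate 3 (0.0798). The alpha subunit ATP5A1, which alternates with beta in the catalytic head, rose in 1 comparison.

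The central stalk subunits delta and epsilon went opposite ways. ATP5D, subunit delta (chr19:1241751-1244825), measured 294.3, 401.0 and 374.0 TPM in DMSO and 53.9 to 298.7 TPM with ligand, with a median of 119.9 TPM. The ranges met only at their edges. It fell in 11 of 12 comparisons, by up to 1.90 (SAR439859 300 nM, SE 0.32, adjusted p = 4.95e-05), and the difference with AZD9496 300 nM was -0.58 (adjusted p = 0.332). The AZD9496 30 nM call was lost without replicate 1 (adjusted p = 0.143) or 3 (0.125) of that group, DMSO replicate 2 (0.138) or DMSO replicate 3 (0.108). ATP5E, subunit epsilon, rose in 8 of 12, with all 12 differences between 0.20 and 0.93 (SE 0.22). Of the peripheral stalk, ATP5F1 fell in 6 and ATP5J in 3, while ATP5O and ATP5H were called in 0. ATP5S, put in complex V by its symbol, rose in 3. Unlike the other ATP5 genes, it is now listed in RefSeq under a name outside that family, DMAC2L.

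**Figure D3:**
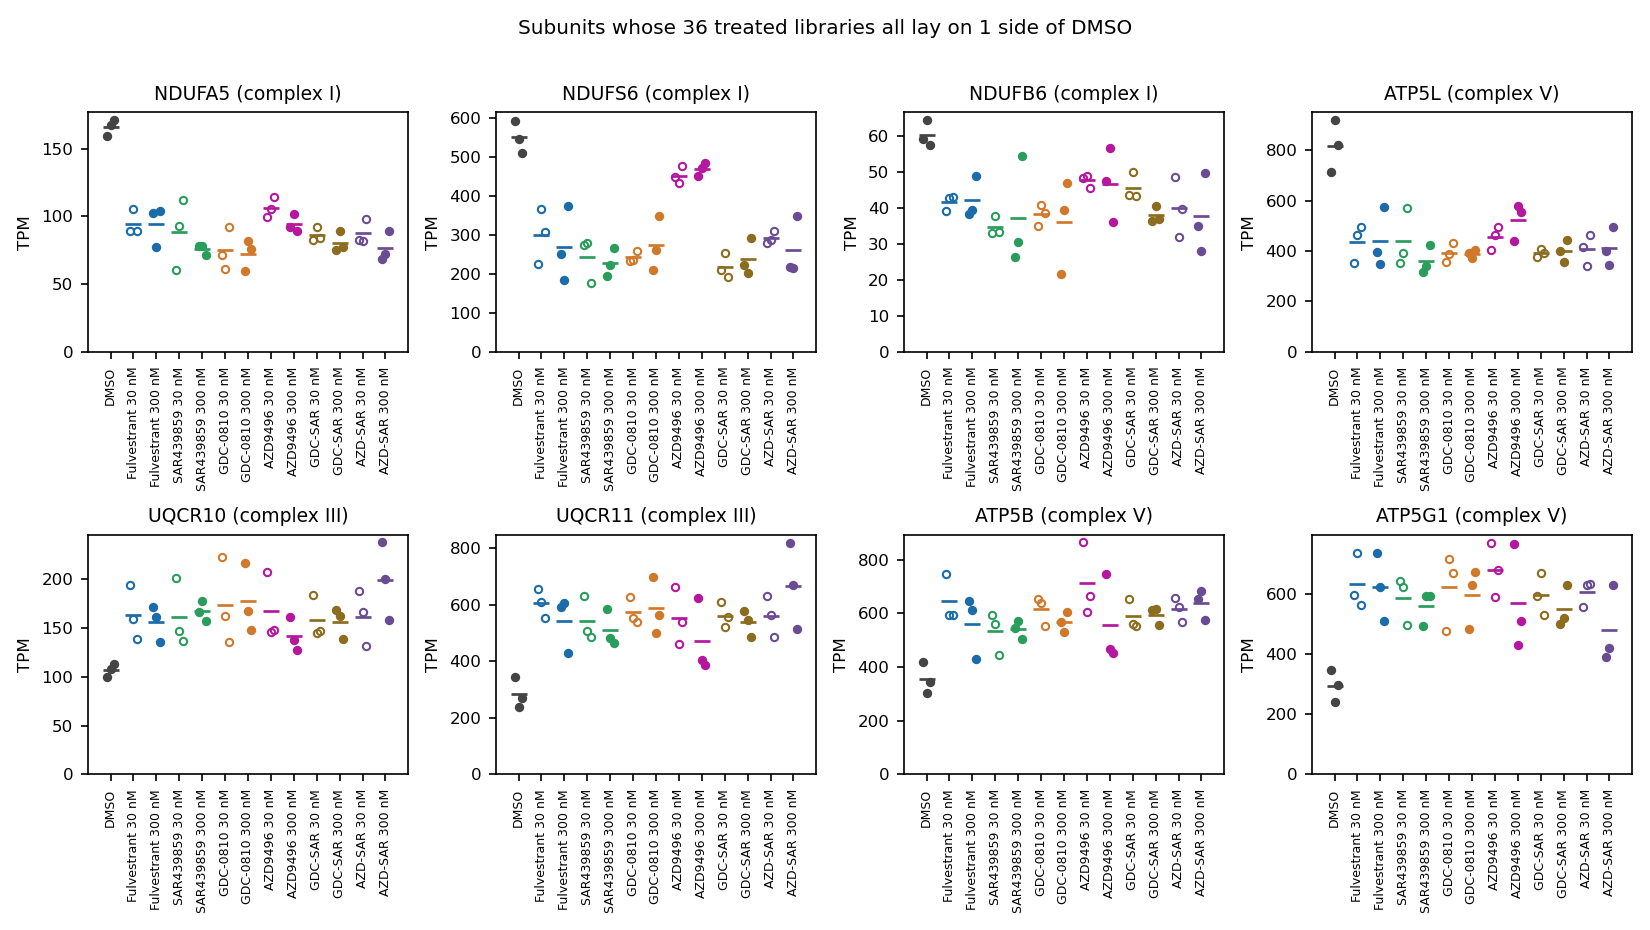
TPM in every library of the 13 groups for the 8 subunits whose 36 treated libraries all lay on 1 side of the 3 DMSO libraries, with points for libraries (open at 30 nM, filled at 300 nM and for DMSO) and lines for group means. NDUFA5, NDUFS6, NDUFB6 and ATP5L lie below DMSO, and UQCR10, UQCR11, ATP5B and ATP5G1 above it.

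Those 8 subunits are 4 below and 4 above DMSO, 5.26% of the set on each side, beside 3.64% of all tested genes below and 4.08% above. NDUFB6 measured 59.1, 64.5 and 57.5 TPM in DMSO and 21.6 to 56.6 TPM with ligand, so its separation from DMSO was narrow.

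The 3 genes of subunit c are of interest because ATP5G1, ATP5G2 and ATP5G3 encode the same mature protein of the rotor ring from different precursors. ATP5G1 (chr17:48892787-48895871) measured 348.0, 240.1 and 296.1 TPM in DMSO, ATP5G2 428.0, 283.5 and 331.5 TPM, and ATP5G3 71.8, 87.0 and 78.8 TPM. With ligand ATP5G1 ran from 391.8 to 770.4 TPM, all above DMSO, and it rose in 12 of 12 comparisons, by 0.69 to 1.21 (SE 0.20, adjusted p from 0.00016 to 0.0115). The call for AZD9496 300 nM was lost without replicate 1 of that group (adjusted p = 0.0604). ATP5G3 fell in 7 comparisons and ATP5G2 in 6, the latter at both doses of GDC-0810, GDC-SAR and AZD-SAR.

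As a share of the summed TPM of the 3 genes, ATP5G1 made up 40.8% ± 1.32 in DMSO (SD, n = 3; libraries 39.3% to 41.9%). Group means with ligand ran from 57.3% ± 9.57 (AZD9496 300 nM) to 70.7% ± 1.20 (GDC-0810 30 nM). The lowest treated library was at 47.8%, above the highest DMSO library. The sum of the 3 genes was 722 ± 119 TPM in DMSO and 711 to 1068 TPM in the treated group means. The share of ATP5G1 thus did not overlap between DMSO and treated libraries, and the sum did.

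**Figure D4:**
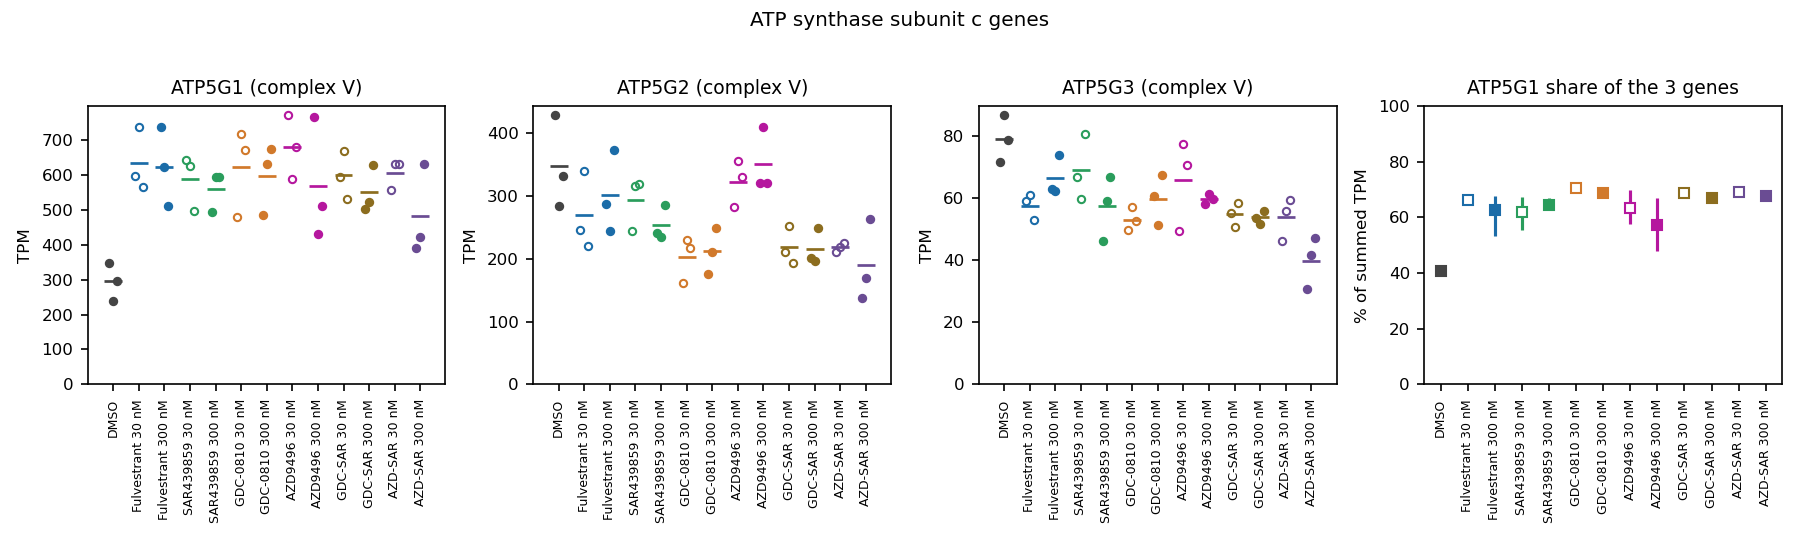
TPM of ATP5G1, ATP5G2 and ATP5G3 in every library by group (points, with lines at group means), and the percent of their summed TPM that ATP5G1 made up (squares at group means, bars from the lowest to the highest of 3 libraries). The ATP5G1 share is 40.8% in DMSO and at least 57.3% in each treated group mean.

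Contrasts among treated groups contain no DMSO mean, although the DMSO libraries enter the shared estimate of the spread and the filter on low values. An F test over the 12 treated groups called 8 subunits (8.73% of all tested genes were called), among them NDUFS6, NDUFS7, NDUFA8, UQCRC1, COX6A1, ATP5G2 and ATP5G3. This count was 5 without GDC-0810 30 nM replicate 1 or AZD9496 30 nM replicate 1, 4 without AZD9496 30 nM replicate 2 or 3, 3 without AZD9496 300 nM replicate 2 and 14 without AZD-SAR 300 nM replicate 3. Over the 36 ways to leave out 1 treated library, the call was lost in 27 for ATP5G3 (adjusted p up to 0.168), 12 for NDUFS7 (0.0941), 6 for COX6A1 (0.111), 2 for UQCRC1 (0.0541), 1 for ATP5G2 (0.0539) and 0 for NDUFS6 and NDUFA8. An F test over all 13 groups called 22 subunits (23.2% of all tested genes): 7 in complex I, 1 in complex II, 3 in complex III, 3 in complex IV and 8 in complex V.

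AZD9496 and GDC-0810 differ in scaffold by the labels, and they were compared at the same 2 doses, pooled (n = 6 libraries each). Of 6 such pairs this one differed in the most subunits, 26 of 76 (34.2%, against 16.4% of all tested genes): 18 higher with AZD9496 (against 14.8%) and 8 lower (against 1.56%). NDUFS6 ran from 432.4 to 482.7 TPM with AZD9496 (median 460.7) and from 210.0 to 347.6 TPM with GDC-0810 (median 246.9), a difference of 0.85 (SE 0.16, adjusted p = 0.00216) with no overlap. ATP5D ran from 147.9 to 298.7 TPM (median 201.2) and from 75.0 to 129.7 TPM (median 110.4), a difference of 0.95 (SE 0.23, adjusted p = 0.00609). ATP5G2 was 336 ± 42.7 TPM with AZD9496 and 207 ± 32.9 TPM with GDC-0810 (SD, 0.70, adjusted p = 0.0028).

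NDUFS7, the core subunit that hands electrons to ubiquinone, was 63.6 ± 7.31 TPM with AZD9496 and 38.9 ± 6.33 TPM with GDC-0810 (difference 0.70, adjusted p = 0.00271). COX6A1, COX8A, UQCRC1 and NDUFA8 were also higher with AZD9496, by 0.68, 0.56, 0.53 and 0.41 (adjusted p = 0.00251, 0.00582, 0.00385 and 0.00216). For 11 of the 18 subunits that were higher with AZD9496, the 6 libraries of each ligand did not overlap. These 18 were picked by calls on the same libraries, and the share of all tested genes without overlap was not counted. The 11 is thus a value only. The subunits that were lower with AZD9496 overlapped in every case: UQCRQ (-0.80, adjusted p = 0.0374), NDUFA9 (-0.75, adjusted p = 0.0405), ATP5O (-0.74, adjusted p = 0.0178), NDUFA4 (-0.72, adjusted p = 0.0328), COX6C, NDUFA12, ATP5E and NDUFB1. RefSeq now lists NDUFA4 as COXFA4, a subunit of complex IV, although its symbol put it in complex I here.

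The balance of this comparison depends on scaling. The median of all tested genes was 0.13 higher with AZD9496 on the deposited scale, and after median-of-ratios scaling the split of called subunits was 8 higher and 18 lower, in place of 18 and 8. Of the 26 calls 16 held under both scales, and none reversed: NDUFS6, NDUFS7, NDUFA8, UQCRC1, COX6A1, COX8A, ATP5D and ATP5G2 remained higher, and the 8 lower subunits remained called lower under that scaling. The 8 lower calls rested on single libraries. Without replicate 1 of GDC-0810 at 30 or at 300 nM the count was 0 lower and 14 higher, without AZD9496 30 nM replicate 2 it was 0 and 17, without AZD9496 30 nM replicate 3 it was 2 and 15, and without AZD9496 300 nM replicate 2 it was 0 and 15. Over the 12 ways to leave out 1 compared library, the calls of UQCRQ and NDUFA9 were each lost in 7 (adjusted p up to 0.11 and 0.139) and that of ATP5O in 4 (up to 0.0751).

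**Figure D5:**
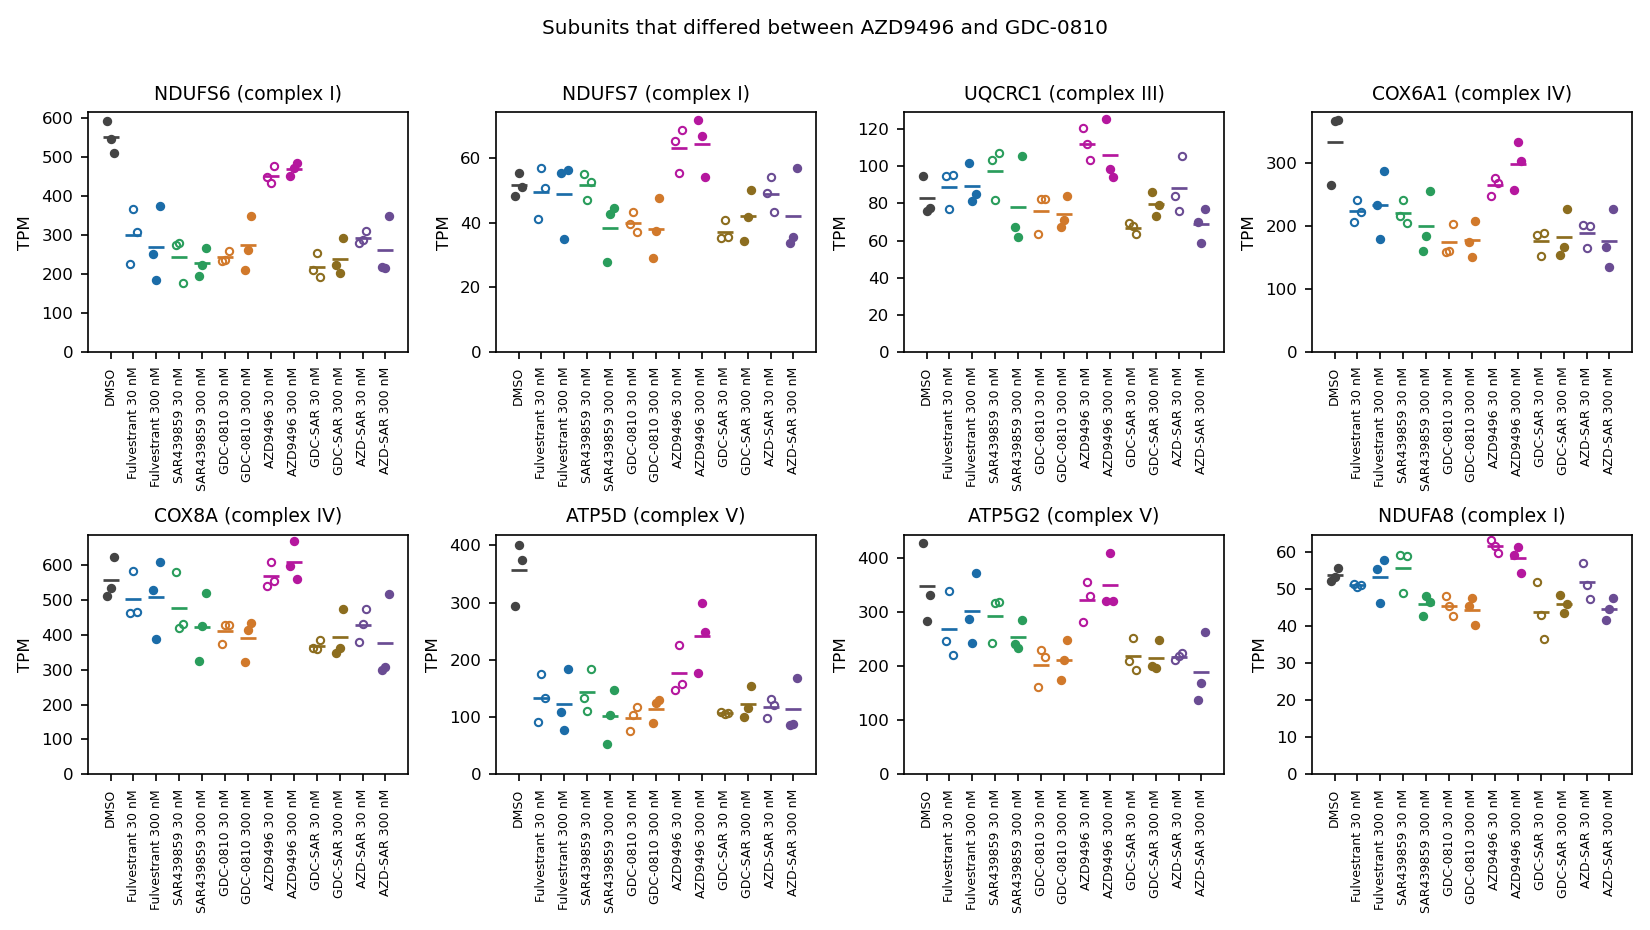
TPM in every library of the 13 groups for 8 subunits higher with AZD9496 than with GDC-0810, with points for libraries (open at 30 nM, filled at 300 nM and for DMSO) and lines for group means. For NDUFS6 the 6 AZD9496 libraries (432.4 to 482.7 TPM) lie above the 30 libraries of the other ligands, whose highest value is 374.4 TPM.

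Exchanging the side chain of AZD9496 for that of SAR439859 gives AZD-SAR, and this pair differed in 16 subunits (21.1%, against 15% of all tested genes), 13 lower (against 12%) and 3 higher (against 3%) with AZD-SAR. NDUFS6 ran from 215.9 to 348.5 TPM with AZD-SAR (median 283.2), below all 6 AZD9496 libraries (-0.75, SE 0.16, adjusted p = 0.00151). ATP5G2 ran from 137.8 to 263.1 TPM (median 214.6), below the lowest AZD9496 library at 282.4 TPM (-0.74, adjusted p = 0.000847). COX6A1 and COX8A also did not overlap (-0.64 and -0.57, adjusted p = 0.00206 and 0.00427), and ATP5D overlapped (-0.84, adjusted p = 0.0124). The 3 subunits that were higher with AZD-SAR were NDUFA4 (0.73, adjusted p = 0.0334), ATP5E (0.45, adjusted p = 0.0442) and ATP5J (0.22, adjusted p = 0.0446), and these calls were lost in 7, 8 and 8 of the 12 ways to leave out 1 compared library (adjusted p up to 0.13, 0.148 and 0.143). After median-of-ratios scaling the split was 9 lower and 7 higher, and 12 of the 16 calls held. The count was 9, 10 and 26 without AZD-SAR 300 nM replicate 1, 2 and 3.

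The same exchange on the other scaffold, GDC-SAR against GDC-0810, called 0 of 76 subunits (against 3.68% of all tested genes, 1.85% lower and 1.83% higher). At an unadjusted p under 0.05 there were 9 in this limma fit, with the smallest adjusted p at UQCRB (0.23, 95% interval 0.09 to 0.37, adjusted p = 0.055). Intervals lay within ±0.5 on the log2 scale for 57 subunits and within ±1 for 76, and the bound farthest from 0 was 0.85 (COX6C). The count became 1 without GDC-0810 300 nM replicate 1 or GDC-SAR 30 nM replicate 1. Whether the side chain exchange acted differently on the 2 scaffolds was tested as an interaction, which called 0 of 76 (0.0208% of all tested genes, 29 subunits at an unadjusted p under 0.05). The smallest adjusted p was 0.0802 for ATP5G2 (-0.81, 95% interval -1.23 to -0.39). NDUFS6, which was called on the AZD9496 scaffold, had an interaction of -0.59 (adjusted p = 0.167). The interaction count became 2 without GDC-0810 300 nM replicate 3 and 14 without AZD-SAR 300 nM replicate 3, and a difference between scaffolds was not shown at the planned setting.

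Ligands that share the SAR439859 side chain did not differ past the threshold in any subunit. AZD-SAR against GDC-SAR called 0 of 76 (0% of all tested genes, 1 subunit at an unadjusted p under 0.05 in limma), and intervals lay within ±0.5 for 63 subunits and within ±1 for 75. GDC-SAR against SAR439859 called 0 (0.354% of all tested genes, 0.16% lower and 0.194% higher, 7 unadjusted), with 57 and 76 subunits within those bounds. AZD-SAR against SAR439859 called 0 (0.0555% of all tested genes, 0.00694% lower and 0.0486% higher, 9 unadjusted), with 60 and 75. The closest to the threshold in that pair was ATP5G3 at 46.9 ± 10.2 TPM against 63.3 ± 11.5 TPM (adjusted p = 0.0997). Leaving out SAR439859 30 nM replicate 1 gave 1 call in the GDC-SAR pair and 2 in the AZD-SAR pair, and leaving out its replicate 2 gave 1 in the latter. These intervals do not show that the compounds act alike.

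No subunit passed the threshold by dose. Averaged over the 6 ligands, 300 against 30 nM called 0 of 76 subunits (0% of all tested genes) in limma, with 4 at an unadjusted p under 0.05. Differences ran from -0.18 to 0.14, and all 76 intervals lay within ±0.5, the widest reaching 0.44 for UQCRQ.

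Related mitochondrial genes, in lists written with earlier results of these data known, held calls in both directions, as did the tested genes at large. Of 48 tested assembly factors, which build the complexes but are not part of them, 3 to 13 fell and 2 to 6 rose per comparison with DMSO. Of all tested genes, 2.05% to 12.8% were called lower and 3.71% to 15.3% higher in those comparisons. NDUFAF2, a complex I assembly factor, measured 40.2, 42.4 and 41.6 TPM in DMSO and 13.6 to 30.0 TPM with ligand, and it fell in 12 of 12 comparisons, by 0.69 to 1.33. COA1 and HIGD1A also fell in 12 of 12, by 0.85 to 1.38 and 0.64 to 0.85. Of 8 tested electron carriers and other subunits, cytochrome c (CYCS) fell in 8 comparisons, from 71.8 to 88.5 TPM in DMSO to 33.8 to 69.3 TPM with ligand. CYC1, a subunit that the symbol rule leaves out of the set, fell in 7. Of 20 tricarboxylic acid cycle genes, citrate synthase (CS) fell in 7 comparisons and IDH3G, a subunit of isocitrate dehydrogenase, rose in 12.

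Among 17 tested regulators of mitochondrial biogenesis, 1 to 4 fell and 1 to 2 rose per comparison, against 2.05% to 12.8% and 3.71% to 15.3% of all tested genes. MYC, a transcription factor with binding at many metabolic genes, fell in 12 of 12 comparisons, by 1.05 to 1.86 (SE 0.14), from 63.8 to 68.6 TPM in DMSO to 15.01 to 34.0 TPM with ligand. GABPB1, a subunit of the ETS factor GABP, rose in 12 of 12, by 0.96 to 1.58, from 14.5 to 22.2 TPM to 29.9 to 81.7 TPM. PPRC1, a coactivator of the PGC-1 family, fell in 10. NRF1, GABPA and TFAM were called in 0 comparisons, and PPARGC1A, at a mean of 0.20 TPM, was not tested. Of 77 mitochondrial ribosomal proteins 1 to 15 fell and 1 to 9 rose, and of 82 tested cytosolic ribosomal proteins 1 to 17 fell and 2 to 17 rose. The same shares of all tested genes apply beside these counts. The list counts are not given as percentages within the same comparison, so they do not show whether a list lay at or above background. In AZD9496 against GDC-0810, 9 assembly factors, 7 tricarboxylic acid cycle genes and 3 regulators were higher with AZD9496 and 0 of these were lower, against 14.8% and 1.56% of all tested genes. These lists were not counted under median-of-ratios scaling, which turned the balance of the subunits in that comparison. Of 9 tissue-specific isoforms of the subunits, 2 passed the filter on low values, and COX7B2 was listed at 0 in all 39 libraries.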

How the data were processed

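RNA from 39 libraries (13 groups of 3) was sequenced from stranded NuGEN libraries after extraction with a Qiagen kit and DNase, per the labels' protocols. Reads were aligned with STAR to GRCh38, per the submitters' processing notes, and for the counting tool, annotation and versions the sources used here give nothing. The authors deposited TPM values for 46706 symbols. Each library sums to 1000000, so depth is unknown and a rise in some genes lowers the share of others. The design text mentions duplicate samples, but each group has 3 labelled libraries.

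Tests covered the 14404 symbols whose mean reached 1 TPM. Log2(TPM + 1) values were fitted with limma 3.58.1 (R 4.3.3) with 1 mean per group and an intensity trend (26 residual degrees of freedom), and p-values were adjusted by the Benjamini-Hochberg method over all tested genes within a comparison. A call is an adjusted p under 0.05, and intervals are 95% intervals. Differences are on the log2(TPM + 1) scale, first group minus second, which understates changes of low genes. Figures were drawn with matplotlib 3.10.9.

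The members, gene lists and tests were chosen with earlier results of these data known. Named subunits are, per complex, the 3 with the smallest F test p and the most abundant, plus up to 3 called each way with the largest difference per comparison; from each related list the 3 with the smallest F test p. Subunits outside that rule, and the genes TFAM, NRF1, GABPA, PPARGC1A and CYC1, were named after their values were seen. On simulated data for GDC-SAR 300 nM against DMSO (14404 genes), 19 of 100 changes of 0.5 and 70 of 100 of 1 on the log2 scale were recovered. For GDC-SAR against GDC-0810 it was 40 and 83 of 100. Only these genes were changed, drawn from all but the lowest levels, while 20.3% of genes were called in the real GDC-SAR 300 nM comparison. The adjustment is stricter when few genes change, so these rates do not give the recovery of subunits here. Symbols were matched to RefSeq for 27757 of 46706, including all 76 subunits. Index sequences of 2 of the 3 DMSO libraries recur among treated ones, and no pool or lane is labelled. The results of 1 subunit are not reported here by name.

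Alternatives were a pseudocount of 0.1, no filter, median-of-ratios scaling, protein-coding symbols only, only the libraries compared, each library left out, without the SAR439859 30 nM group, and, added after the data were seen, without the 2 libraries with MALAT1 at 0.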

Additional observations from a re-analysis of the deposited data

How the results depend on the processing

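None of the 109 single-subunit results chosen by the naming rule reversed under any alternative, although the F test results among them have no direction to reverse. Most were picked as the largest called differences in these same libraries, so a reversal was unlikely from the start. Calls could be lost more easily. With 1 library left out, 168 of these results lost their call and 1354 kept their status. Calls were also lost for 12 after median-of-ratios scaling, 18 without a filter, 10 with only the libraries compared and 8 among protein-coding symbols only. For other subunits named here, direction was not followed with each library left out. A pseudocount of 0.1 moved no count by more than 1.5 times. Without a filter on low values the counts of called subunits fell to 10 (fulvestrant 30 nM), 12 (SAR439859 30 nM), 17 (GDC-0810 300 nM), 7 (AZD9496 30 nM), 14 (GDC-SAR 30 nM), 23 (AZD-SAR 300 nM) and 5 (F test over 12 treated groups), where the adjustment ran over more genes. Fitting only the libraries compared gave 27 (fulvestrant 30 nM), 9 (SAR439859 30 nM), 15 (GDC-0810 300 nM), 1 (AZD9496 300 nM), 19 (AZD-SAR 300 nM) and 10 (AZD-SAR against AZD9496). Median-of-ratios scaling gave 1 for AZD-SAR against SAR439859 and 2 for the F test over 12 treated groups. Protein-coding symbols only gave 2 for GDC-SAR against GDC-0810 and 3 for that F test. Without the SAR439859 30 nM group, GDC-SAR against GDC-0810 gave 2. Without the 2 libraries with MALAT1 at 0 the counts were 21 (AZD-SAR 300 nM), 1 (GDC-SAR against GDC-0810), 1 (GDC-SAR against SAR439859) and 2 (AZD-SAR against SAR439859). The cause was not tested where none is given. Shares of all tested genes at these settings are not given here, so the counts are values only.

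After median-of-ratios scaling the lower and higher splits against DMSO that moved most were 12 and 5 (fulvestrant 30 nM), 12 and 5 (fulvestrant 300 nM), 17 and 6 (SAR439859 30 nM), 8 and 4 (AZD9496 30 nM) and 5 and 2 (AZD9496 300 nM). Of the F test's 8 treated-group calls, NDUFS6 remained after that scaling, and NDUFS6 and NDUFA8 remained among protein-coding symbols only.

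Leaving out 1 library at a time gave ranges of called subunits of 11 to 16 (fulvestrant 30 nM), 8 to 16 (fulvestrant 300 nM), 13 to 20 (SAR439859 30 nM), 13 to 29 (SAR439859 300 nM), 13 to 33 (GDC-0810 30 nM), 13 to 32 (GDC-0810 300 nM), 5 to 13 (AZD9496 30 nM), 2 to 7 (AZD9496 300 nM), 13 to 18 (GDC-SAR 30 nM), 11 to 25 (GDC-SAR 300 nM), 14 to 20 (AZD-SAR 30 nM) and 19 to 46 (AZD-SAR 300 nM). They were 14 to 34 (AZD9496 against GDC-0810), 9 to 26 (AZD-SAR against AZD9496), 0 to 1 (GDC-SAR against GDC-0810 and against SAR439859), 0 to 2 (AZD-SAR against SAR439859), 0 to 0 (AZD-SAR against GDC-SAR, and dose), 0 to 14 (interaction), 15 to 30 (F test over 13 groups) and 3 to 14 (F test over 12 treated groups). A group then reduced to 2 libraries is assumed to vary like the others.

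No paired analysis was made because the labels carry no replicate numbers. A term for the order of deposit was not fitted, and its effect on the spread was not tested. The median half-width of the 95% interval was near 0.38 on the log2 scale against DMSO and near 0.27 between ligands. Smaller differences were mostly not detectable. These intervals are not adjusted for the number of genes, whereas calls are, so differences above those sizes could be missed too.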

Other observations

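The highest summed level of the 76 subunits in a treated group belonged to the library listed first in deposit order in 12 of 12 groups. For AZD9496 30 nM the 3 libraries summed to 27880, 23424 and 23777 TPM, and for SAR439859 30 nM to 26542, 22672 and 22402 TPM. In DMSO the library listed first was not the highest (23248, 22502 and 23277 TPM). Position in that order is not a label of the study, and no batch is given, so this is a value only.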
